A study of Mus musculus with 2 samples.

Results

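The genes described here encode the proteins with which a mouse cell detects double-stranded RNA and passes the alarm on. There are 10 of them, chosen by symbol: the RNA sensors Ifih1, Ddx58, Dhx58, Tlr3, Zbp1 and Eif2ak2, the adaptor Mavs, the RNA editor Adar, and the interferon regulatory factors Irf3 and Irf7. All 10 were found among the 20634 genes of the deposited tables, and all 10 reached 1 FPKM (fragment counts divided by transcript length and library size) in both libraries. The tables hold whole uterus in 2 libraries, of which 1 carries the label Mettl3 f/f and the other Mettl3 ed/ed. Both came from females of 6 to 8 weeks mated with fertile males and taken on gestational day 4, the vaginal plug being day 1. Mettl3 encodes the enzyme that places N6-methyladenosine on messenger RNA. The labels give neither the number of animals behind a library nor the meaning of the genotype letters, and they name no Cre driver or deleted exon. With no replicates, every difference is one between these libraries, and no p-value can be made.

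Double-stranded RNA is a hallmark of viral infection, but it also forms from the cell's own transcripts. MDA5 (gene Ifih1) and RIG-I (gene Ddx58) are cytosolic helicases that bind it and then engage MAVS on the mitochondrial surface, while LGP2 (gene Dhx58) is a relative that lacks the signalling domains and tunes the others. TLR3 reads double-stranded RNA inside endosomes. The kinase PKR (gene Eif2ak2) answers it by blocking translation, and ZBP1 binds left-handed duplexes and can trigger cell death. ADAR converts adenosine to inosine in the cell's own duplexes, which keeps MDA5 and PKR quiet. IRF3 and IRF7 are the transcription factors that then switch on interferon genes. Many of these genes are themselves induced by interferon, through promoter elements of the interferon-stimulated response type.

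The sequences below show where that element was found near the start sites of these genes, beside the same element in 2 interferon targets that were much higher in ed/ed. Promoters are those of RefSeq on GRCm38.p6, from 250 bases before to 50 after the start, and were present for 8 of the 10 genes (Zbp1 and Dhx58 had no entry). The motif searched was GAAANNGAAA on both strands, with the shorter GAAANNGAA, which every match of the longer one contains, as a second search. Each line gives 30 bases on the gene's strand, with the match in capitals.
Ifih1, chr2:62646206-62646235, minus strand: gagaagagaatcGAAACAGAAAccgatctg
Ddx58, chr4:40239804-40239833, minus strand, motif on the other strand: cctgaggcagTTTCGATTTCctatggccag
Eif2ak2, chr17:78882535-78882564, minus strand: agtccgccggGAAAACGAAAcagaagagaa
Adar, chr3:89730738-89730767, plus strand, shorter motif at an internal RefSeq start: ttttcaaggaaacGAAAGTGAActctgggg
Isg15, chr4:156200871-156200900, minus strand: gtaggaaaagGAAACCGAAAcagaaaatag
Ifit1, chr19:34640794-34640823, plus strand, motif on the other strand: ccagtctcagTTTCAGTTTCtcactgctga

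The longer motif was found for Ifih1, Ddx58 and Eif2ak2, 3 of the 8 genes, and begins 33, 3 and 19 bases into the RefSeq transcript. It was found in 9 of 17 interferon target genes with a promoter entry, and in 3.99% of all 27025 genes with one (3.44% of all 32851 promoters of that length). Isg15 holds 3 overlapping matches and Ifit1 holds 2, of which 1 each is shown. The shorter form was in 4 of the 8 genes, in 11 of the 17 targets and in 9.76% of all genes (8.56% of all promoters). The promoters of Mavs, Irf3, Irf7 and Tlr3 held neither form in this window. A match is a description of letters and not a measured binding site, and its absence says only that these letters are not in the window.

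Depth, estimated from the spacing of the lowest values, was about 18300000 fragments behind f/f and 17300000 behind ed/ed. Mettl3 itself was at 10.6 FPKM for f/f and 10.2 for ed/ed, so its level did not separate the libraries, and the genotypes rest on their labels. Each ratio below marked log2 is that of ed/ed to f/f after 1 FPKM was added to both values. It was taken for the 12165 genes that reached 1 FPKM in at least 1 library, and a gene was called at 2-fold. Over all of them the median log2 ratio was -0.26, below 0. Cell-type markers also differed. All 8 stromal and all 7 endothelial markers were lower in ed/ed, with summed levels of 761 against 372 FPKM and 176 against 70.9 FPKM. The 6 smooth muscle markers compared were higher, with the sum over 7 at 471 against 793 FPKM, and the 8 epithelial markers summed to 2718 and 2733 FPKM, with 5 above 0 (Cldn7 at 232 and 437 FPKM) and 3 below (Krt19 at 388 and 222). In whole tissue, fewer cells of a type and less RNA per cell cannot be told apart, and the part of these differences in the values below was not tested.

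None of the 10 genes differed 2-fold between the libraries as deposited. The called-higher count was 0 of 10, where 2.68% of all genes compared were called, and the called-lower count was 0 of 10, where 6.22% were. At a smaller fold of 1.5, Zbp1 and Tlr3 were higher in ed/ed (2 of 10, against 7.04% of all genes) and 0 of 10 were lower (against 23.4%). By sign, 6 genes were above 0 and 4 below, and 29.6% of all genes were above 0. The median log2 ratio of the 10 genes was 0.08, with a range from -0.18 to 0.80, and each of the 10 lay above the median of all genes. That count was 9 of 10 with a pseudocount of 5 FPKM and 6 of 10 with no filter on low values, where the median of 20634 genes was 0.

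**Figure D1:**
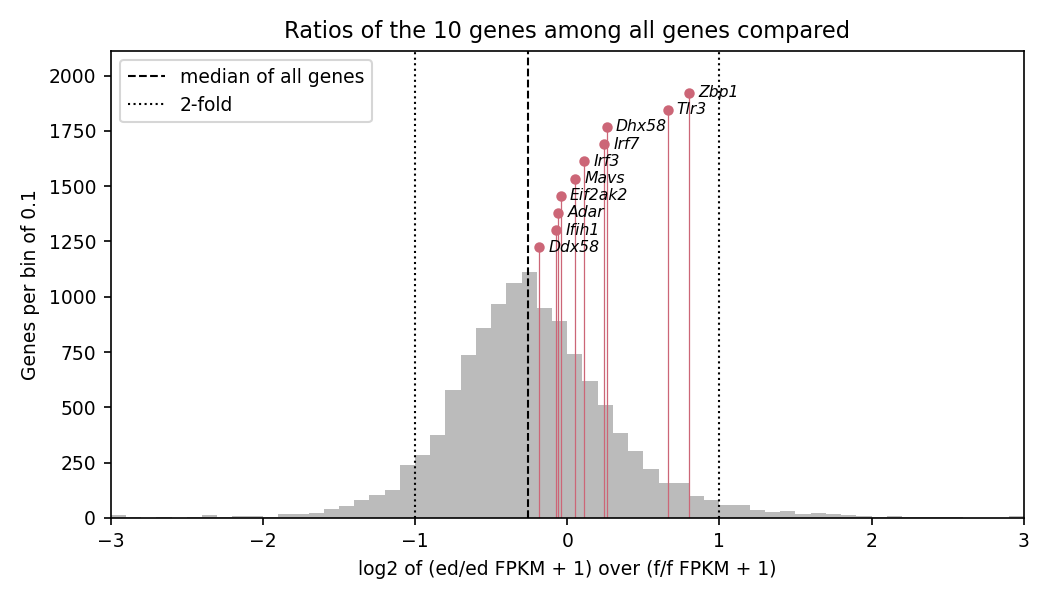
Histogram of the log2 ratio of ed/ed to f/f, each FPKM plus 1, for the 12165 genes compared, in bins of 0.1 with values beyond 3 in either direction placed in the end bins, and the 10 genes as labelled stems whose height has no meaning. All 10 stems stand to the right of the dashed median of -0.26 and inside the dotted 2-fold lines, with Zbp1 at 0.80 and Tlr3 at 0.66 farthest right.

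Of the cytosolic helicases, Ddx58 was the most abundant of all 10 genes in f/f. Ddx58 (ENSMUSG00000040296, chromosome 4, 40203773 to 40239828, GRCm38) was at 54.6 FPKM for f/f and 48.0 for ed/ed. The ed/ed value was the lower of the pair, and the FPKM ratio of 0.879 lay in a 95% counting interval from 0.837 to 0.923, given about 3615 and 3015 fragments. Its log2 ratio of -0.18 was nevertheless above that of 56.7% of all genes. Ifih1 (ENSMUSG00000026896, chromosome 2, 62595798 to 62646255), which encodes MDA5, was at 4.54 FPKM for f/f and 4.27 for ed/ed. These levels overlapped within counting error, with an FPKM ratio of 0.940 and an interval of 0.817 to 1.08. Dhx58 (ENSMUSG00000017830, chromosome 11, 100694884 to 100704271), the gene of the regulator LGP2, was at 3.78 and 4.73 FPKM. It rested on the fewest fragments of the 10, about 149 and 177, and its ratio of 1.25 had an interval of 1.001 to 1.57. The annotated antisense gene Dhx58os overlaps 2637 bases of Dhx58, and without strand its reads could not be separated.

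The adaptor on which both signalling helicases converge was level between the libraries. Mavs (ENSMUSG00000037523, chromosome 2, 131234063 to 131248025) was at 14.0 FPKM for f/f and 14.5 for ed/ed. The FPKM ratio of 1.04 carried a counting interval of 0.935 to 1.15. In both libraries Mavs was more abundant than Ifih1 and less abundant than Ddx58.

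The endosomal receptor and the left-handed duplex sensor were the 2 genes with the largest differences, both higher in ed/ed. Zbp1 (ENSMUSG00000027514, chromosome 2, 173206612 to 173218923) was at 8.68 FPKM for f/f and 15.8 for ed/ed. The FPKM ratio was 1.83 with a counting interval of 1.57 to 2.12, and its log2 ratio of 0.80 exceeded that of 95.8% of all genes. Tlr3 (ENSMUSG00000031639, chromosome 8, 45395665 to 45411080) was at 6.51 FPKM for f/f and 10.9 for ed/ed. Its ratio was 1.67 (1.49 to 1.87) and its log2 ratio of 0.66 exceeded that of 94.1% of genes. The annotated antisense gene Gm45542 overlaps 698 bases of Tlr3, and without strand its reads could not be separated. For neither Zbp1 nor Tlr3 did the counting intervals of the libraries overlap, and the share of all genes with such intervals was not computed. Neither ratio interval reached 1, but counting error is only part of the error, since the spread between animals is unknown. Zbp1 and Tlr3 are known to be expressed in myeloid cells among others. Of 11 macrophage and dendritic cell markers, 8 could be compared, of which 2 were called higher, 0 lower and 6 had a log2 ratio above 0. Among all genes compared, 2.68% were called higher, 6.22% lower and 29.6% were above 0. The 11 markers summed to 118 FPKM for f/f and 239 for ed/ed, and 0 of them were listed at 0. The called genes were Lyz2, the lysozyme gene and the largest part of both sums, at 86.6 and 188 FPKM, and Aif1 at 7.27 and 22.3. The 2 compared markers below 0 were Fcgr1, an antibody receptor gene, at 1.29 and 0.198 FPKM, and Csf1r, the receptor gene for macrophage growth factor, at 3.97 and 3.02. The part of these cells in the Zbp1 and Tlr3 values was not tested.

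The kinase and the editor that act on the same duplexes were nearly equal in both libraries. Eif2ak2 (ENSMUSG00000024079, chromosome 17, 78852564 to 78882573), which encodes PKR, was at 11.9 FPKM for f/f and 11.5 for ed/ed. Its FPKM ratio was 0.969 with a counting interval of 0.880 to 1.07. The noncoding genes Gm26637 and n-R5s29 on the opposite strand overlap 532 and 119 bases of Eif2ak2. Adar (ENSMUSG00000027951, chromosome 3, 89715022 to 89753446) was at 16.3 and 15.6 FPKM, with a ratio of 0.958 (0.893 to 1.03). Adar has a long interferon-inducible form and a shorter constitutive form made from separate start sites, and a value per gene does not separate them. Chrnb2, a nicotinic receptor gene on the opposite strand, overlaps 7252 bases of the Adar gene and was itself at 0.0839 and 0.448 FPKM.

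Of the transcription factors, Irf7 was somewhat higher in ed/ed and Irf3 was not distinguishable between the libraries. Irf7 (ENSMUSG00000025498, chromosome 7, 141262706 to 141266481), which is normally induced by interferon and amplifies its production, was at 48.9 FPKM for f/f and 58.1 for ed/ed. The FPKM ratio was 1.19 with a counting interval of 1.11 to 1.27, from about 1777 and 2004 fragments. Irf3 (ENSMUSG00000003184, chromosome 7, 44997648 to 45002848), which is present before infection and is activated by phosphorylation, was at 23.5 and 25.5 FPKM. Its ratio of 1.08 had an interval of 0.979 to 1.20. Irf3 shares 1065 bases with Bcl2l12 on the opposite strand, at 16.7 and 18.8 FPKM. Irf7 overlaps only 45 bases of its neighbour Phrf1, at 9.99 and 10.7 FPKM.

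FPKM is a level per transcript length, so the genes can also be ranked. In f/f the order from high to low was Ddx58, Irf7, Irf3, Adar, Mavs, Eif2ak2, Zbp1, Tlr3, Ifih1 and Dhx58, and of these neighbours only Ifih1 and Dhx58 had overlapping counting intervals. In ed/ed the order was Irf7, Ddx58, Irf3, Zbp1, Adar, Mavs, Eif2ak2, Tlr3, Dhx58 and Ifih1. There Zbp1 and Adar overlapped, as did Adar and Mavs, Eif2ak2 and Tlr3, and Dhx58 and Ifih1. Irf7 and Ddx58 exchanged the first place, and Zbp1 stood at place 7 in f/f and at place 4 in ed/ed. Among all genes compared, Ddx58 stood above 88.8% by level in f/f and 88.5% in ed/ed, whereas Ifih1 stood above 25.4% and 29.5%.

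**Figure D2:**
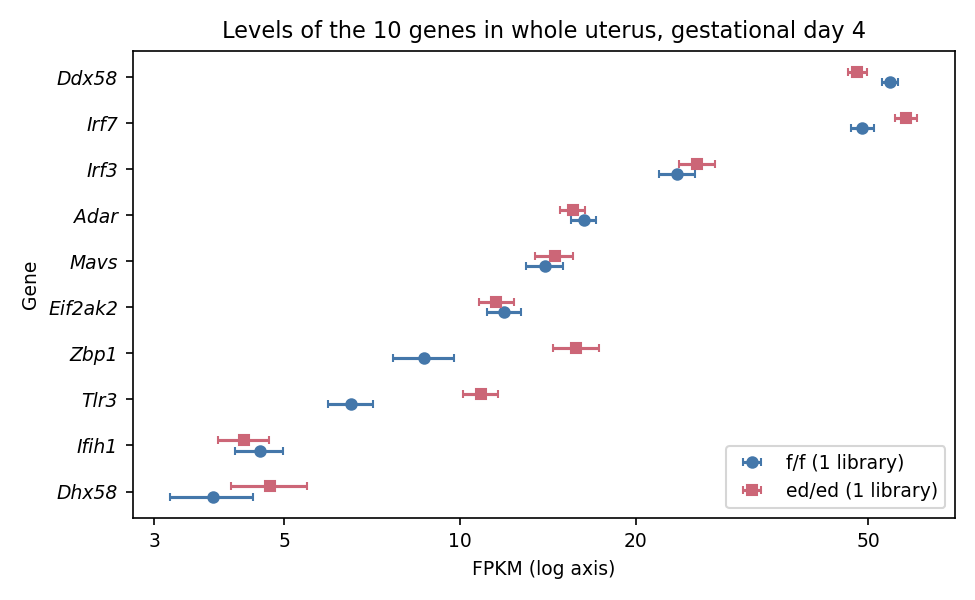
FPKM of each of the 10 genes on a log axis in the f/f library (circles) and the ed/ed library (squares), with bars for the exact Poisson 95% interval of the estimated fragments, which covers counting error only. Zbp1 (8.68 and 15.8), Tlr3 (6.51 and 10.9), Ddx58 (54.6 and 48.0) and Irf7 (48.9 and 58.1) have bars that do not overlap. The share of all genes with such bars was not computed, so this is not a trait of these genes.

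Ratios of genes within a library do not depend on how the libraries are scaled to each other. Ddx58 exceeded Ifih1 by a factor of 12.0 in f/f and 11.2 in ed/ed, so the RIG-I transcript was in both libraries by far the more abundant of the pair. Zbp1 stood at 0.532 times the level of Adar in f/f and at 1.01 times in ed/ed. Tlr3 stood at 1.43 times the level of Ifih1 in f/f and 2.54 times in ed/ed. The balance of PKR to its suppressor ADAR was nearly constant, with Eif2ak2 at 0.731 and 0.740 times the level of Adar. Irf7 stood at 2.08 and 2.28 times the level of Irf3. Dhx58 stood at 0.833 and 1.11 times the level of Ifih1.

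Which genes counted as higher or lower depended on the scale when the difference was small. Bringing ed/ed to the same sum, upper quartile, median ratio or reference genes as f/f shifted the log2 ratios by 0.09, 0.21, 0.28 or 0.36. Ddx58 was lower in ed/ed as deposited and with equal sums (-0.10) but above 0 with the other 3 scalings, up to 0.17. Adar and Eif2ak2, just below 0 as deposited, were above 0 under all 4 scalings, from 0.02 to 0.28 and from 0.04 to 0.29. Ifih1 was also above 0 under 3 of the 4, up to 0.22. Mavs, Irf3, Dhx58, Irf7, Tlr3 and Zbp1 were above 0 under every scale tried. The median of all genes moved too, to -0.18 with equal sums, -0.07 with the upper quartile, -0.01 with the median ratio and 0.06 with reference genes. A sign above 0 is therefore more common among all genes under these scalings than as deposited. Zbp1 ranged from 0.88 to 1.14 under the 4 scalings and passed 2-fold in 2 of them, and Tlr3 ranged from 0.74 to 0.99.

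**Figure D3:**
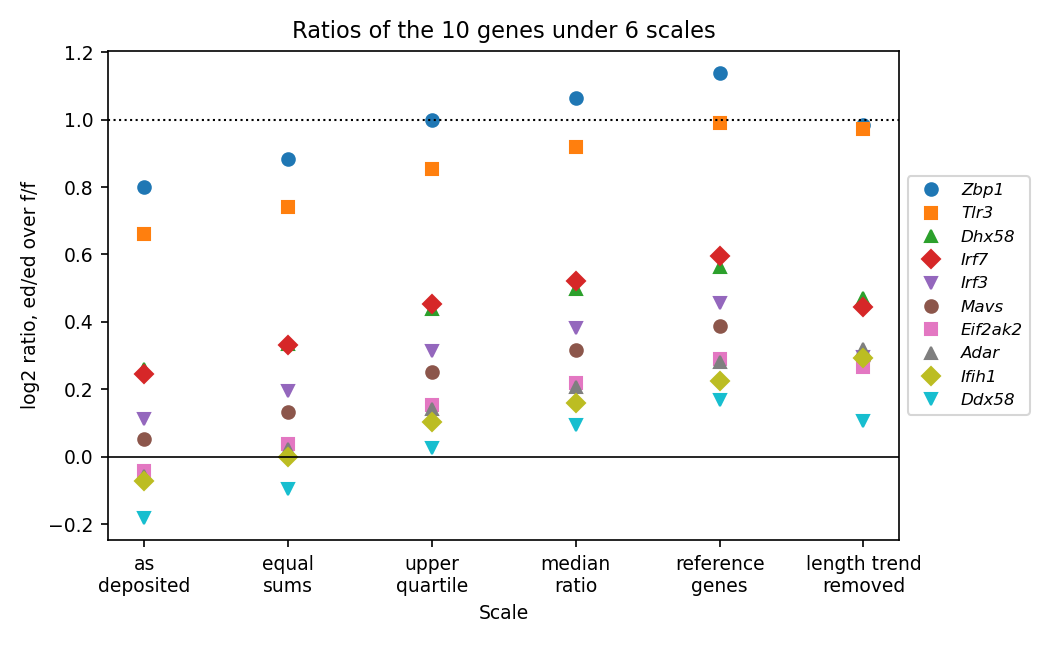
Log2 ratio of ed/ed over f/f for each of the 10 genes (markers) as deposited, under the 4 other scalings and with the length trend removed, the solid line marking 0 and the dotted line 2-fold. Zbp1 and Tlr3 lie above the other 8 genes on every scale, and the genes below 0 number 4 as deposited and 2 with equal sums.

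Ratios also followed transcript length across all genes, and the 10 genes span that range. The longest coding transcript measured 1989 nt for Zbp1, 2031 for Irf3, 2237 for Irf7, 2412 for Dhx58 and 3057 for Mavs. It measured 3874 nt for Ddx58, 4313 for Eif2ak2, 4407 for Tlr3, 5470 for Ifih1 and 5909 for Adar. Over 12111 genes Spearman's rho between ratio and length was -0.22, a description across genes, which are not independent replicates and share both libraries. Removal of the length trend centres all ratios near 0, and all 10 genes were above 0, from 0.11 for Ddx58 to 0.98 for Zbp1 and 0.97 for Tlr3. On that scale 0 of 10 were called at 2-fold (4.32% of genes higher, 2.85% lower), and 2 of 10 were higher at 1.5-fold (12.1% of genes) with 0 lower (10.3%).

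**Figure D4:**
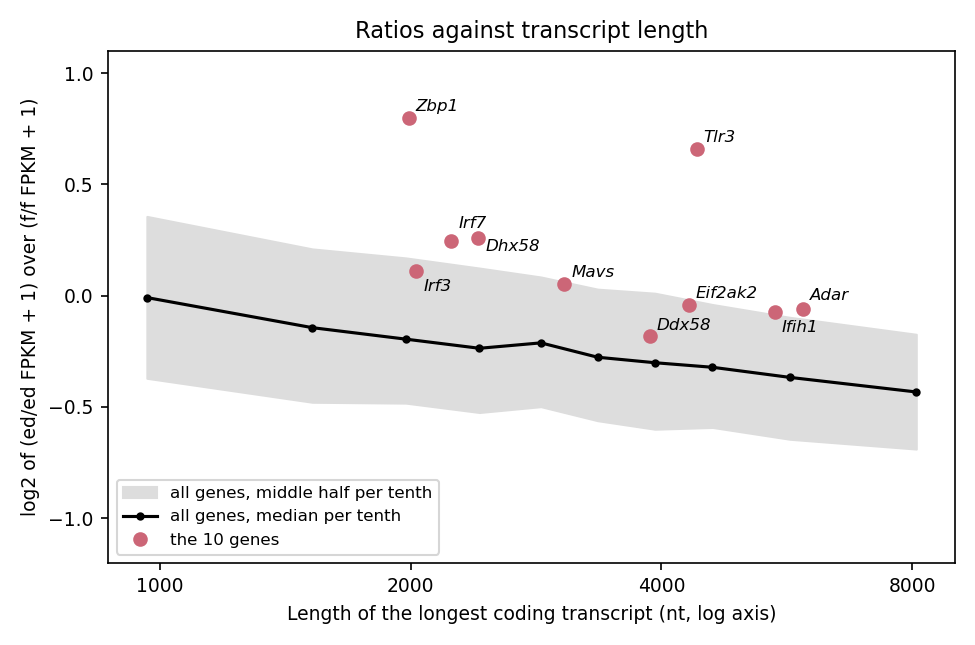
Log2 ratio of ed/ed to f/f, each FPKM plus 1, against the longest coding transcript (nt, log axis) for the 10 genes (points), with the median of all genes in 10 equal groups by length (line) and their 25th to 75th percentile (band). The line falls from -0.01 in the shortest group to -0.43 in the longest, and all 10 points lie above it.

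The regulators of the RIG-I-like receptors did not pass 2-fold either. Of 10 activating cofactors, 0 were called, with a median log2 ratio of -0.28, and 3 were above 0 (4 to 5 under the other scalings). Over all genes compared, the median was -0.26 and 29.6% were above 0, and 5 of the 10 cofactors lay above that median. The helicase gene Ddx3x was at 112 FPKM for f/f and 70.5 for ed/ed, Dhx15 at 39.6 and 27.1, and Ddx60 at 1.62 and 0.901. Tomm70a, a mitochondrial import receptor to which MAVS binds, was at 31.7 and 22.9. Of 9 inhibitors of these receptors or of MAVS, 0 were called and all 9 were below 0 as deposited, with a median of -0.40, while 2 to 3 were above 0 under the other scalings. Above the median of all genes lay 3 of the 9. The ubiquitin ligase gene Rnf125 was at 13.4 and 8.75 FPKM and Itch at 16.3 and 11.9. Tkfc, an inhibitor of MDA5, was at 4.68 and 2.63 FPKM, and Pcbp2 at 249 and 187.

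Below MAVS and the TLR3 adaptor TRIF, 1 of 17 signalling genes was called higher and 0 lower, against 2.68% and 6.22% of all genes compared. The 17 had a median of -0.07, which was above 0 under the other 4 scalings. The called gene was Tradd, an adaptor shared by tumour necrosis factor receptors and MAVS, at 13.1 FPKM for f/f and 34.0 for ed/ed. Its FPKM ratio of 2.59 carried a counting interval of 2.28 to 2.94, and its log2 ratio stayed above 1 under all 4 other scalings, from 1.39 to 1.66. Tbkbp1, which binds the kinase TBK1, was at 2.37 and 1.33 FPKM, Ikbkg at 9.29 and 6.82 and Nfkb1 at 18.4 and 14.1.

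The arms beyond PKR and ZBP1 held no gene past 2-fold. Of 11 genes around the translation factor eIF2alpha, 0 were called and the median was -0.30, against -0.26 over all genes compared. As deposited 1 of the 11 was above 0 (2 to 6 under the other scalings), where 29.6% of all genes were. That gene was Atf4, whose protein drives the stress response to blocked translation, at 81.1 FPKM for f/f and 115 for ed/ed. Of the other eIF2alpha kinase genes, Eif2ak1 was at 21.4 and 13.5 FPKM, Eif2ak4 at 6.73 and 4.18 and Eif2ak3 at 5.40 and 5.09. Eif2s1, the gene of eIF2alpha itself, was at 25.7 and 17.7. Of 7 genes of ZBP1-driven cell death, 0 were called and the median was -0.40. Ripk3, the kinase that ZBP1 recruits, was at 6.26 and 3.83 FPKM, and its substrate gene Mlkl at 3.80 and 2.32. Casp8 was at 40.3 and 30.2 FPKM, while Casp6 was at 19.3 and 32.2. Of the 7 genes 3 were above 0, as under each of the 4 other scalings.

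Other proteins that bind, edit or process double-stranded RNA had values below 0 on the deposited scale, as did most genes compared. Of 16 genes, 13 could be compared and all 13 were below 0, with 0 called at 2-fold and a median of -0.31, but 1 to 7 were above 0 under the other scalings. Over all genes compared, the median was -0.26 and 29.6% were above 0, and 5 of the 13 lay above that median. Among the larger differences were Zfr at 23.1 and 12.8 FPKM, the helicase gene Dhx9 at 41.0 and 24.9, and Dicer1, the nuclease of microRNA processing, at 7.64 and 4.83. With the length trend removed 6 of the 13 were above 0. Other sensors of nucleic acids had 8 of 11 genes that could be compared, 0 called and a median of -0.27. Aim2, a sensor of cytosolic DNA, was at 1.23 and 2.79 FPKM, and Unc93b1, the chaperone that carries TLR3 to endosomes, at 13.4 and 19.6. Myd88, an adaptor of other toll-like receptors but not of TLR3, was at 388 and 249 FPKM, and Ddx41 at 14.9 and 10.2. The single-stranded RNA receptor genes Tlr7 and Tlr8 and the DNA receptor gene Tlr9 were under 1 FPKM in both libraries. Of 11 enzymes that clear nucleic acids, 0 were called and the median was -0.13. Trex1, a DNA exonuclease whose reads can be shared with the overlapping gene Atrip, was at 14.7 and 27.2 FPKM. Rnaset2a, which has a near-identical copy and is therefore uncertain, was at 48.1 and 87.2 FPKM. That copy, Rnaset2b, went the other way, at 94.9 and 86.8. Samhd1 was at 21.9 and 15.2 and Rnaseh2a at 13.9 and 9.83.

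**Figure D5:**
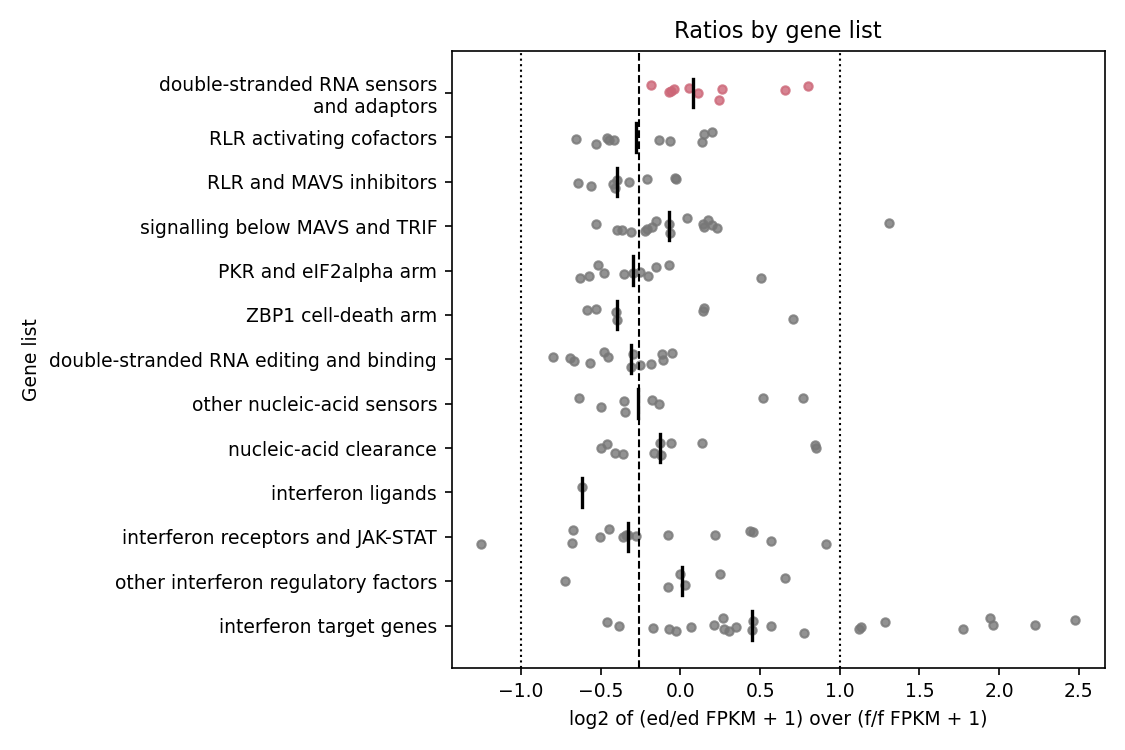
Log2 ratio of ed/ed to f/f, each FPKM plus 1, for each gene compared (points, spread vertically for visibility) in the 10 sensor and adaptor genes and in 12 related lists, RLR standing for RIG-I-like receptor, with list medians as vertical bars. The 10 genes (top) span -0.18 to 0.80 inside the dotted 2-fold lines. Beyond 2-fold on the right lie 8 of 23 interferon target genes, against 2.68% of all genes compared. The dashed line marks the median of all genes.

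Interferon genes were mostly listed at 0. Of 21 ligand genes, 18 were listed at 0 in both libraries, among them Ifnb1 and every Ifna gene listed. The other 3 were Ifne, Ifnk and Ifng, of which Ifne, the interferon of reproductive tract epithelium, alone reached 1 FPKM. It was at 3.93 FPKM for f/f and 2.21 for ed/ed, with a counting interval of the ratio of 0.286 to 1.06, which includes 1. Ifng was listed at 0 in f/f and at 0.0612 FPKM in ed/ed. Of 15 receptor and JAK-STAT genes, 0 were called higher and 1 lower, against 2.68% and 6.22% of all genes compared. The 15 had a median of -0.33, against -0.26 over all genes. The lower gene was Jak2, a kinase of cytokine and interferon-gamma receptors, at 128 and 53.3 FPKM, with a log2 ratio of -1.25 that became -0.90 at its smallest under the other scalings. Stat2, which carries the type I interferon signal to the nucleus, was at 11.8 and 23.1 FPKM, a log2 ratio of 0.92 that passed 2-fold under all 4 scalings. Ifngr1 was at 21.8 and 13.2 FPKM and Jak1 at 38.5 and 23.8. Of the 6 other interferon regulatory factors compared, 0 were called and the median was 0.01, with Irf5 at 1.93 and 3.61 FPKM, Irf1 at 22.2 and 26.6 and Irf9 at 42.1 and 39.9.

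The genes that these sensors and interferon are known to induce were listed alongside, and the difference between them and the sensors was not tested. Of 23 interferon target genes, 8 were called higher and 0 lower, with a median of 0.45 and 18 above 0 (19 to 21 under the other scalings). Among all genes compared, 2.68% were called higher, 6.22% lower and 29.6% were above 0, with a median of -0.26. With a pseudocount of 5 FPKM, and likewise with a filter at 5 FPKM, 5 of the targets were called higher (0.921% and 2.4% of all genes). These targets were listed with their earlier results known, so their count is not independent evidence of direction. Oas2 was at 4.29 FPKM for f/f and 28.4 for ed/ed, Oasl1 at 3.52 and 20.1, Isg15 at 41.5 and 164, and Ifit1 at 13.5 and 54.7. These 4 were named for having the largest absolute log2 ratios of the list, so that they exceed Zbp1, the largest among the sensors, follows from that choice. Zbp1 had a log2 ratio of 0.80, below the 8 called targets. Targets below Zbp1 ran from 0.77 for Oasl2 to -0.46 for Ddx60. Among the 9 targets whose promoters hold the longer motif, 4 were called higher. Across the 9, the FPKM ratio ran from 0.558 for Ddx60 to 4.63 for Ifit3b, with a median of 1.37. Ifit3b (0.477 FPKM for f/f and 2.21 for ed/ed) and Oas3 (0.562 and 2.42) were both called higher. They reached 1 FPKM only in ed/ed, so they passed the filter through the library where they were high. Among the 8 targets with a promoter entry and no match, 1 was called higher, and the ratio ran from 0.748 for Samd9l to 5.71 for Oasl1, with a median of 1.01. The called targets Oas2, Mx1 and Rtp4 had no promoter entry and are in neither group. The difference between the groups was not tested. Isg15 and Ifit1, whose sequences are shown above because they were much higher in ed/ed, had ratios of 3.97 and 4.05. For Ifih1, Ddx58 and Eif2ak2, whose promoters hold the longer motif too, the FPKM ratios were 0.940, 0.879 and 0.969.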

How the data were processed

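RNA extracted with TRIzol was made into TruSeq libraries, per the labels' protocols. The deposited values, 1 per gene and library, were taken as FPKM made by the authors, since the submitters' processing notes name Cufflinks 2.2.1, which writes FPKM, and HISAT2 2.2.1; the file headers name no unit. The notes name mm9 and mm10 without a role, so coordinates from GENCODE M21 (GRCm38, 20557 identifiers matched) locate genes and not reads. The sources used here do not give annotation, strand or filters. FPKM keeps no total, so a few abundant genes or RNA quality can move many values together. In genes with a single annotated transcript above 1000 nt, low values were multiplied by effective length (250 nt subtracted). The spacing at which the products clustered best was taken as 1 fragment, which gave the depth. The clustering was partial, at 0.377 for f/f and 0.406 for ed/ed, where 1 would mean every value on a multiple. Intervals are exact (Clopper-Pearson for ratios, Poisson for levels, 95%), rest on estimated fragments and the longest coding transcript, and cover counting error only. Because each genotype has 1 library, a 2-fold rule with a pseudocount and filter of 1 FPKM stood in for a test. The length trend was a lowess (fraction 0.3, statsmodels 0.14.6) on log2 length. Calling, depth and length steps were tested on simulated data. That simulation used 1 length per gene and the same 250 nt subtraction, so it cannot show that the depth step holds for these libraries.

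The members and all lists were chosen with earlier results of these data known. The 12 pathway lists hold 162 entries, matched as 151 different genes, and the text names per list up to 4 genes with the largest absolute log2 ratio, plus those called in lists of at most 17. Lyz2, Ifng, Ifnk, Oasl2, Mx1, Rtp4, Rnaset2b and the toll-like receptor genes under 1 FPKM were chosen after their values were seen. Genes not matched by symbol are not analysed here. Protein sequences were not used here. Alternatives tried were a pseudocount of 0.1 or 5 FPKM, a filter of 5 FPKM or none, a 1.5-fold rule, 4 scalings and removal of the length trend. Values of some genes are not reported here.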

Additional observations from a re-analysis of the deposited data

How the results depend on the processing

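With 1 library per genotype no replicate could be left out and no p-value exists, so these values show only how the processing moved them. No paired analysis was possible because each genotype has 1 library. The median log2 ratio of the 10 genes, 0.08 as deposited, was 0.068 with a pseudocount of 5 FPKM, 0.16 with equal sums, 0.28 with the upper quartile, 0.35 with the median ratio, 0.42 with reference genes and 0.31 with the length trend removed. Zbp1 made the called-higher count 1 of 10 with the median ratio (log2 ratio 1.07, against 4.75% of all genes). With reference genes it did so too (1.14, against 5.61%). By the 1.5-fold rule 2 of 10 were higher as deposited (7.04% of all genes) and 3 of 10 with reference genes (15.9%). With a pseudocount of 5 FPKM that count was 1 of 10 (3.5%), as Tlr3 fell to a log2 ratio of 0.46. The called-lower count was 0 under every alternative. Interferon target genes called higher numbered 5 with a pseudocount of 5 FPKM (0.921% of all genes) and 5 with a filter at 5 FPKM (2.4%), against 8 (2.68%). Other nucleic-acid sensors had 1 called higher with a pseudocount of 0.1 FPKM (4.02%) and 1 with reference genes (5.61%). Nucleic-acid clearance had 2 called higher with the median ratio (4.75%), 2 with the upper quartile (4.14%), 2 with reference genes (5.61%) and 1 with the length trend removed (4.32%). The ZBP1 list had 1 called higher with reference genes (5.61%). Interferon receptor and JAK-STAT genes had 1 called higher (Stat2) under each of the 4 scalings and with the length trend removed, and 0 called lower with the median ratio, with reference genes and with the length trend removed. By the 1.5-fold rule, higher and lower genes numbered 0 and 1 of RIG-I-like receptor cofactors, 0 and 1 of their inhibitors, 0 and 1 of the PKR list, 1 and 1 of the ZBP1 list, 0 and 3 of double-stranded RNA binding genes, 1 and 1 of other sensors, 2 and 0 of clearance, 0 and 1 of ligands, 1 and 3 of receptors, and 1 and 1 of other interferon regulatory factors. By that rule 7.04% of all genes compared were higher and 23.4% lower. The cause of these shifts was not tested beyond the construction of each alternative. Depth estimates were 17800000 and 17000000 fragments with 200 nt subtracted and 18700000 and 17700000 with 300 nt, settings chosen after seeing the data. Of the 10 genes, Dhx58 rests on the fewest fragments, about 149 and 177, and is the least precise.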

Other observations

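Most markers of lymphocytes were under 1 FPKM in both libraries. Of 11 T, B and NK cell markers, 2 reached 1 FPKM in either library, and the B cell markers Cd79a and Ms4a1 were listed at 0 in both. The natural killer receptor gene Ncr1 was at 0.995 FPKM for f/f and 2.37 for ed/ed, and Nkg7 at 6.10 and 7.13. Ncr1 reached 1 FPKM only in ed/ed, so it passed the filter through the library where it was high. Under 1 FPKM in both libraries, other markers were lower in ed/ed: Klrb1c at 0.817 and 0.367, Prf1 at 0.939 and 0.789, Cd3e at 0.722 and 0.395, Cd8a at 0.509 and 0.280 and Cd4 at 0.230 and 0.159. Cd3d was higher, at 0.0872 and 0.943. The 6 neutrophil markers summed to 4.96 FPKM for f/f and 2.42 for ed/ed. Of the 4 compared, 3 were lower in ed/ed: Retnlg at 1.74 and 0.172 FPKM, Ly6g at 1.72 and 0.515 and S100a8 at 1.29 and 0.489. The other was S100a9, listed at 0 in f/f and at 1.25 FPKM in ed/ed, which passed the filter only through ed/ed. Mpo and Cxcr2 were listed at 0 in ed/ed. These genes were chosen after their values were seen. Siglech and Flt3, markers of dendritic cells, were at 0.398 and 0.428 FPKM (Siglech) and 0.110 and 0.165 FPKM (Flt3).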
